A study of Mus musculus with 9 samples.

Results

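The FOS and JUN family of the transcription factor AP-1 was followed through the first hours of neural stem cell differentiation. Its 8 members were taken by their symbols from the table of counts: the FOS genes Fos, Fosb, Fosl1 and Fosl2, the JUN genes Jun, Junb and Jund, and Atf3, the gene of a partner protein. They are 8 of 48526 genes in the table, and the 4 FOS and 3 JUN genes are all of the FOS and JUN genes of the mouse. NSCs were grown as neurospheres from the subependymal zone (SEZ) of adult C57BL/6J mice (C57BL/6 in the labels) with EGF and FGF, and undifferentiated cells were the 0 h group. Differentiation was induced on Matrigel, an adhesive substrate, in medium that kept FGF and lacked EGF. For cells fixed within hours of induction the methods place the seeding in medium with EGF a day earlier, but whether the 0, 1 and 6 h cultures of these libraries were all plated in that way is not stated in the sources used here. Each time point had 3 libraries of bulk RNA, numbered 1 to 3, and neither the labels nor the methods say which mice or cultures a number stands for. The p-values therefore measure the spread between these libraries, which may be technical.

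AP-1 is a dimer of basic leucine zipper proteins. FOS proteins must pair with a partner such as a JUN protein to bind DNA, while JUN proteins also pair with each other and with ATF proteins. The dimers bind the 7-base site TGANTCA or the related 8-base ATF site TGACGTCA. Several of the genes, Fos and Fosb above all, are immediate early genes: growth factors, calcium and stress switch them on through ERK, JNK and p38 kinases acting on factors already bound to their promoters, and both the mRNAs and the proteins are short-lived. EGF, on which cultured NSCs depend, is a known inducer of such genes through ERK.

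The promoters of the members whose values moved most at 1 h (Fosb, Atf3 and Jun) are shown with that of Fos, the gene for which this family is named. Each window runs from 250 bases before to 50 bases after the RefSeq start site (GRCm38.p6, 5′ to 3′ on the strand of the gene), and each of these 4 start sites lies within 7 bases of a start in GENCODE M21. The windows are chr12:85473640-85473939 on the plus strand for Fos and, on the minus strand, chr7:19309996-19310295 for Fosb, chr4:95052173-95052472 for Jun and chr1:191183284-191183583 for Atf3, whose window is at a start inside the gene. Capitals mark TGACG, the 5-base core of a CREB or ATF site (CGTCA where it is on the other strand), and TGACATCA, a variant of the ATF site for which the Jun promoter is known.
Fos: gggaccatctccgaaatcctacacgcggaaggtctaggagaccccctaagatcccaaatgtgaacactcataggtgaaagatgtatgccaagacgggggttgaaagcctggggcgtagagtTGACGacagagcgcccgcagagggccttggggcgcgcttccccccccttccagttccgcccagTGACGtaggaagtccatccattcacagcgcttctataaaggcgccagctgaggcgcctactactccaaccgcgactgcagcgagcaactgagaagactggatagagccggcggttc
Fosb: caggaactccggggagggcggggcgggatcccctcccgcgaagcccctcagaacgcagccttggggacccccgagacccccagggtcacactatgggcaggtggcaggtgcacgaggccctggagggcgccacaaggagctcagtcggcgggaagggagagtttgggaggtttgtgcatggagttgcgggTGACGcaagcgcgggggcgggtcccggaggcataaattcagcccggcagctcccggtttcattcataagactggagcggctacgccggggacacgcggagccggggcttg
Jun: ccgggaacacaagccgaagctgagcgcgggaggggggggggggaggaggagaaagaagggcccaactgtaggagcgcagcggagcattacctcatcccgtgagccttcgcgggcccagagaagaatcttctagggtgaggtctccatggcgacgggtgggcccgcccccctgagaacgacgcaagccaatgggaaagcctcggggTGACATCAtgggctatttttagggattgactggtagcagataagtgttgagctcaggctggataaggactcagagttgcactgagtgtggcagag
Atf3: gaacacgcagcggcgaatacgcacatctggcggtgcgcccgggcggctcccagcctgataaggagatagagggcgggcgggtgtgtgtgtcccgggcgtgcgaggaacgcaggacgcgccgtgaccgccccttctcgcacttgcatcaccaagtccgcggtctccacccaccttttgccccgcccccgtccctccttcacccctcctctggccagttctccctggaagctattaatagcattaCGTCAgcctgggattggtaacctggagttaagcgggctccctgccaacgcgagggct
Fos held TGACG 129 and 66 bases before the start, Fosb held it 60 bases before, and in Atf3 it lay 7 bases before the start on the other strand, within TTACGTCA. Jun held TGACATCA 45 bases before its start and no TGACG. Of the 7 members with a window in the reference table, Junb was the other one with TGACG, 106 bases before its start, and no motif searched was in the windows of Fosl2 and Jund. Neither of these 2 windows reaches a GENCODE start of its gene: the RefSeq start used for Jund lies 1210 bases upstream of the nearest, and that of Fosl2 lies inside the gene. Among 32851 windows of the same length, searched on both strands, 20.8% held TGACG, 3.62% TGACATCA, 0.499% TTACGTCA, 7.81% TGANTCA, 1.79% TGACGTCA and 1.63% a CArG box, the site of SRF. TGACG is part of TGACGTCA and, on the other strand, of TTACGTCA, so those matches overlap. TGANTCA, TGACGTCA and the CArG box were in none of the 7 windows, which says only that these letters are not in these stretches. Fosl1 had no window.

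The counts came from libraries of 65871454 to 105592597 counted reads, and levels are given as CPM, counts scaled to library size with the TMM method, whose factors were between 0.97 and 1.02. All 8 members were among the 18858 genes that passed the filter on low counts. Of 12 NSC markers, Nes, Vim, Fabp7, Slc1a3, Egfr, Sox2, Sox9 and Pax6 were above 30 CPM in every library, while Prom1 lay between 2.78 and 12.8 CPM, Hes5 between 1.05 and 9.25 CPM and Gfap between 0.48 and 1.63 CPM. All 6 microglial markers were under 0.25 CPM in every library, as were the endothelial markers Cldn5 and Cdh5. Other endothelial and mural markers were not: Kdr lay between 1.09 and 4.12 CPM and Rgs5 between 0.41 and 3.69 CPM. Pdgfrb lay between 0.04 and 4.97 CPM and Pecam1 between 0.09 and 0.36 CPM. In bulk RNA, fewer cells with a transcript and less of it per cell cannot be told apart. Differences were tested in 2 fits of edgeR's quasi-likelihood test, with p-values adjusted over all tested genes by the Benjamini-Hochberg method and a threshold of 0.05. The first fit used only the time point, and the second added the replicate number as a block, because libraries with the same number varied together. The family was selected on measured values that were already known, those of Fosb at 1 h against 0 h and of Jun at 1 h and 6 h against 0 h, so these are described without a p, and nothing is read from a count that holds them.

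Jun was by far the most abundant member at each time. Per kilobase of exon, the scale on which genes can be compared, the mean level of Jun at 0 h was 46.2 ± 9.08 CPM per kilobase (SD, n = 3, as for all means here). Fos followed with 6.23 ± 0.621, Jund with 4.63 ± 0.660, Fosl1 with 2.37 ± 0.0869, Junb with 2.04 ± 1.02, Fosl2 with 1.76 ± 0.0543, Atf3 with 0.567 ± 0.0690 and Fosb with 0.0946 ± 0.0272 CPM per kilobase. In this order Fosl1, Junb and Fosl2 did not differ beyond the spread of Junb, and each of the other steps was larger than the spread. At 1 h the order was Jun (24.5 ± 5.20), Fos (6.36 ± 0.586), Jund (5.33 ± 0.383), Fosl2 (2.25 ± 0.337), Fosl1 (1.96 ± 0.364), Junb (1.85 ± 0.595), Atf3 (1.60 ± 0.274) and Fosb (0.663 ± 0.108 CPM per kilobase), and the 4 genes from Fosl2 to Atf3 each overlapped with the next. At 6 h Jund (4.95 ± 0.0964) stood above Fos (3.99 ± 0.586) without overlap, both far below Jun (23.9 ± 3.43). Fosl1 (1.81 ± 0.197), Fosl2 (1.05 ± 0.145), Junb (0.99 ± 0.172), Atf3 (0.701 ± 0.0426) and Fosb (0.0912 ± 0.00759 CPM per kilobase) followed, of which only Fosl2 and Junb overlapped. Some of these positions rest on which exons could be counted. Fosl1 shares 1163 of its 2033 exonic bases with Ccdc85b on the opposite strand, Jund 877 of 1668 with Gm11175, Jun 232 of 3189 with Junos and Junb 173 of 2301 with Prdx2. Of 93 genes lying wholly inside exons of a well counted gene on the opposite strand, 93.5% had 0 counts in all libraries, against 30.7% of 36968 genes without such an overlap. Reads in shared bases may therefore be missing from these counts, but whether those genes were expressed at all was not tested. As an alternative chosen after seeing the data, the same CPM of the whole gene was divided by the length of unshared bases alone. This scale holds only if no read in shared bases was counted. On it Jund at 0 h was at 9.77 ± 1.39 and Fosl1 at 5.55 ± 0.203 CPM per kilobase, which put Jund above Fos and left Jun first at 49.8 ± 9.80. These positions concern levels between genes, and fold changes of 1 gene over time do not use its length.

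**Figure D1:**
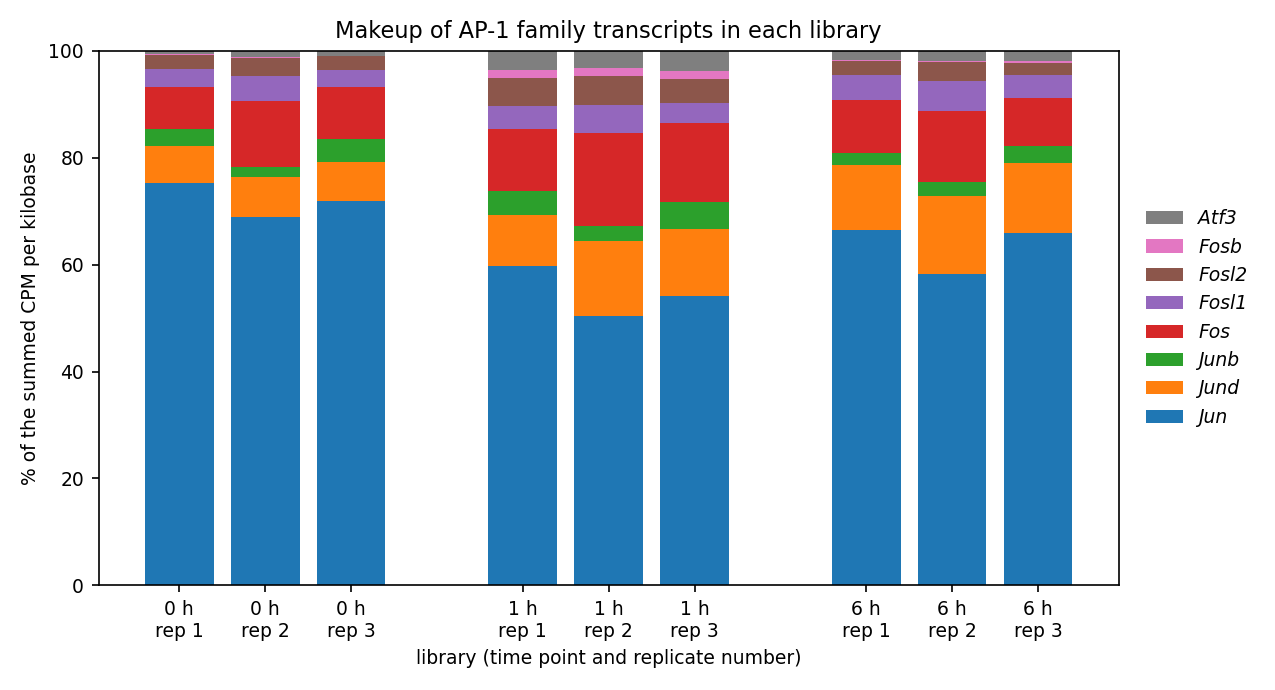
Share of each member in the summed CPM per kilobase of the 8 genes, in percent (vertical axis), for each of the 9 libraries (horizontal axis, by time point and replicate number). Jun takes 69.0% to 75.2% of the sum at 0 h, 50.3% to 59.7% at 1 h and 58.3% to 66.4% at 6 h.

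The makeup of the family's transcripts shifted with time, as the plot of shares shows. Summed over the 8 genes, the mean level was 63.9 CPM per kilobase at 0 h, 44.5 at 1 h and 37.5 at 6 h, and Jun accounted for 72.3%, 55.1% and 63.8% of it. Atf3 took 0.69% to 1.16% of the sum at 0 h, 3.24% to 3.87% at 1 h and 1.76% to 1.96% at 6 h, and Fosb took 0.13% to 0.18%, 1.44% to 1.55% and 0.20% to 0.28%. Jund took 6.95% to 7.45% at 0 h and 12.1% to 14.7% at 6 h, while its own mean level was 7.73 ± 1.10 CPM at 0 h and 8.25 ± 0.161 CPM at 6 h. With CPM divided by the length of unshared bases, the share of Jun was 65.5%, 48.0% and 54.5%, and that of Jund 12.9%, 20.4% and 22.0%.

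Fosb, whose protein can be made in a full-length and a shortened form that gene counts do not separate, is on the minus strand at chr7:19302696-19310051 (ENSMUSG00000003545). At 0 h it was at 0.594, 0.419 and 0.759 CPM in replicates 1, 2 and 3, which are 43, 31 and 53 reads. At 1 h it was at 4.91, 3.64 and 3.87 CPM (314, 332 and 278 reads), and at 6 h at 0.516, 0.605 and 0.588 CPM (38, 55 and 63 reads). All 1 h libraries lay above all others, and the 0 h and 6 h libraries overlapped. The mean of 0.591 ± 0.170 CPM at 0 h against 4.14 ± 0.677 CPM at 1 h gave a fitted fold of 6.99, or a log2 fold change of 2.80 (95% interval 2.22 to 3.38). From 1 h to 6 h the log2 fold change was -2.85 (95% interval -3.43 to -2.28), a difference that uses the same 1 h libraries and is likewise given without a p. Against 0 h it was -0.05 at 6 h (95% interval -0.61 to 0.51, adjusted p = 0.959), and its sign was not settled: it turned to 0.17 without 0 h replicate 3. Even at 1 h Fosb was, per kilobase, at 0.663 ± 0.108 CPM, below the 6.36 ± 0.586 CPM per kilobase of Fos.

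Atf3 encodes a stress-induced ATF protein that can pair with JUN proteins and often represses its targets (ENSMUSG00000026628, chr1:191170296-191218039, minus strand). It was also highest at 1 h, with a smaller fold change than Fosb and a higher level per kilobase. It was at 1.05, 1.30 and 1.32 CPM at 0 h, 3.98, 2.82 and 3.53 CPM at 1 h and 1.53, 1.41 and 1.59 CPM at 6 h. The 3 time points did not overlap: every 1 h library was above every 6 h library, and these were above those of 0 h. At 1 h against 0 h, means of 1.22 ± 0.149 and 3.44 ± 0.590 CPM gave a log2 fold change of 1.49 (standard error 0.19), higher in 3 of 3 replicates. Its adjusted p was 0.0610 in the fit on time point alone, outside the threshold, and 0.000121 with the block. DESeq2, the test the authors used, gave an adjusted p of 3.66e-10 on time point alone. At 6 h it had fallen 2.28-fold from 1 h, which is -1.19 on the log2 scale with a standard error of 0.19 (adjusted p = 0.0227). That call was kept in 3 of 9 fits with 1 library removed, and was lost without any 1 of the 6 h libraries, without 1 h replicate 1 or 3, or without 0 h replicate 3 (adjusted p up to 0.109). With the block its adjusted p was 5.54e-05, and the call was kept in 3 of 3 fits that left out a replicate number. The remaining excess at 6 h over 0 h, a log2 fold change of 0.30 (95% interval -0.12 to 0.73), did not pass either fit (adjusted p = 0.463 and, with the block, 0.169).

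**Figure D2:**
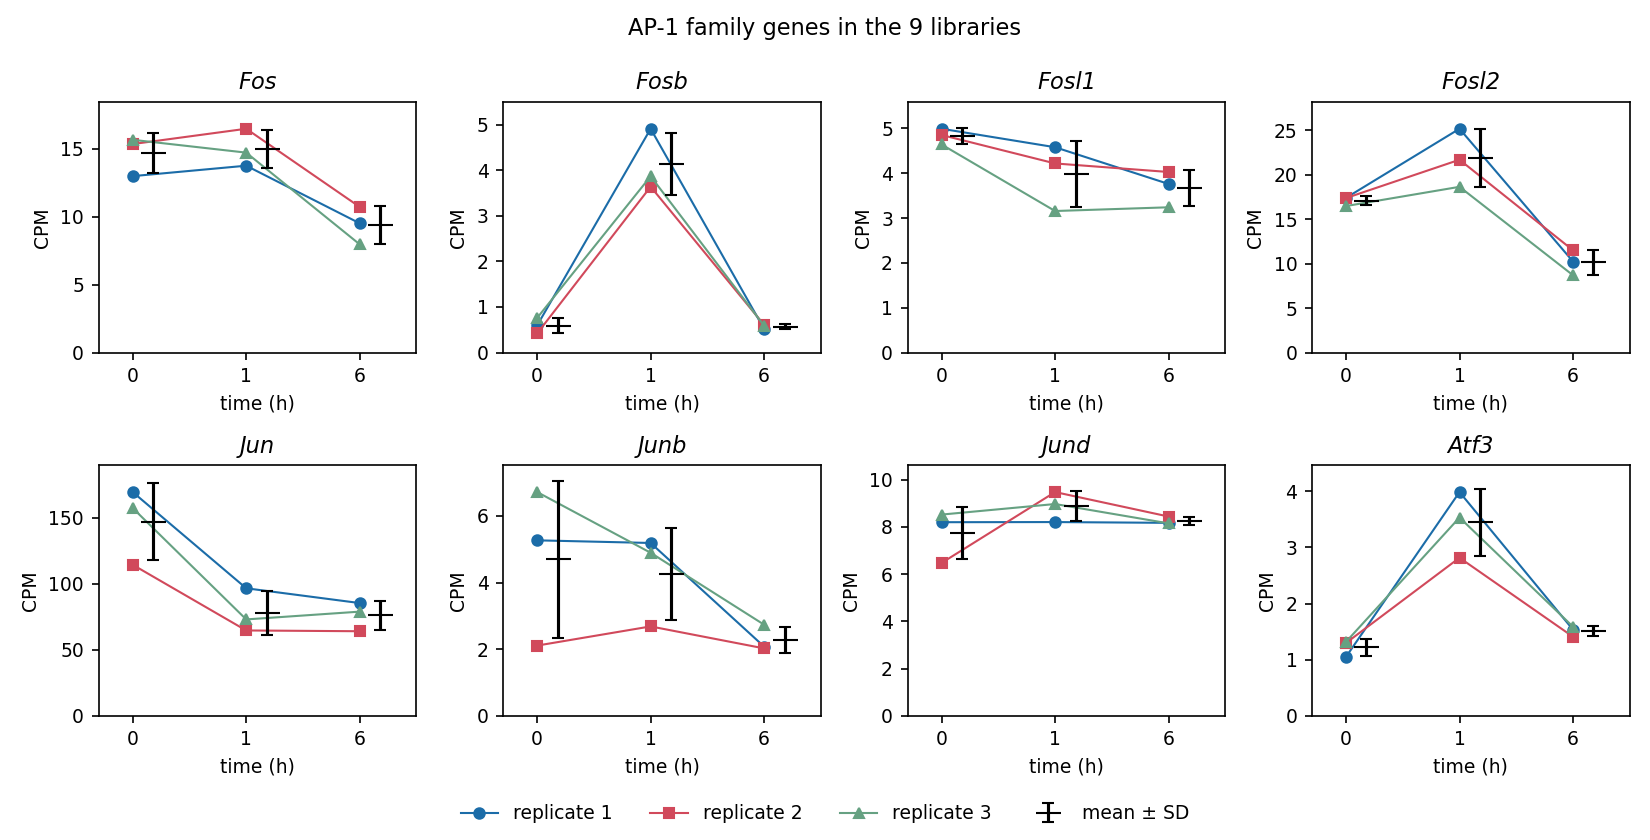
CPM (vertical axes, from 0, a scale per gene) of the 8 members at 0, 1 and 6 h (horizontal axes). Points are single libraries, lines join libraries with the same replicate number, and black bars are means ± SD. The 1 h libraries of Fosb (3.64 to 4.91 CPM) and Atf3 (2.82 to 3.98 CPM) stand above those of 0 h and 6 h, while Jun is lower at both later times.

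Fos itself, the prototype immediate early gene (ENSMUSG00000021250, chr12:85473890-85477273, plus strand), had no such peak. It was at 13.0, 15.3 and 15.6 CPM at 0 h, 13.7, 16.5 and 14.7 CPM at 1 h and 9.50, 10.7 and 7.95 CPM at 6 h. The 0 h and 1 h libraries overlapped, and all 6 h libraries lay below them. The log2 fold change at 1 h was 0.03 (95% interval -0.29 to 0.35, adjusted p = 0.9998), an interval that excludes a 1.5-fold rise or fall at 1 h but says nothing of times in between. From 0 h to 6 h, means of 14.6 ± 1.46 and 9.39 ± 1.38 CPM gave -0.64 (standard error 0.14), lower in 3 of 3 replicates, with an adjusted p of 0.0580 on time point alone and 0.000152 with the block. Against 1 h the value was -0.67 (standard error 0.14), with 0.0539 and 0.000110. DESeq2 on time point alone gave adjusted p-values of 0.00147 against 0 h and 0.000662 against 1 h.

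Fosl2, which encodes Fra-2, a FOS protein without the strong activation domain of c-Fos, was the FOS gene that passed at 6 h against 0 h in both fits (ENSMUSG00000029135, chr5:32135801-32157842, plus strand). It was at 17.4, 17.4 and 16.5 CPM at 0 h, 25.2, 21.7 and 18.6 CPM at 1 h and 10.2, 11.5 and 8.69 CPM at 6 h. The 3 time points did not overlap, with 1 h highest and 6 h lowest. At 1 h the log2 fold change was 0.35 (standard error 0.14), higher in 3 of 3 replicates, with an adjusted p of 0.9998 on time point alone and 0.0373 with the block. The blocked call was kept in 1 of 3 fits that left out a replicate number (adjusted p up to 0.224). At 6 h it had fallen 1.68-fold from 0 h, which is -0.75 ± 0.14 on the log2 scale (± standard error, adjusted p = 0.0382, and 2.30e-05 with the block). On time point alone this call was kept in 1 of 9 fits with a library removed, the one without 1 h replicate 3 (adjusted p up to 0.138). From 1 h to 6 h it had fallen 2.15-fold, which is -1.11 ± 0.14 on the log2 scale (± standard error, adjusted p = 0.0123), kept in 7 of 9 such fits and lost without replicate 1 of 1 h or of 6 h (adjusted p up to 0.0640).

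Fosl1, the gene of the related Fra-1 (ENSMUSG00000024912, chr19:5447547-5455946, plus strand), was at 4.99, 4.85 and 4.64 CPM at 0 h, 4.58, 4.22 and 3.16 CPM at 1 h and 3.76, 4.03 and 3.24 CPM at 6 h. Every library of the later times lay below every 0 h library. At 1 h the difference was -0.28 on the log2 scale (standard error 0.17, adjusted p = 0.9998, and 0.171 with the block). At 6 h it was -0.39 (standard error 0.17, adjusted p = 0.279), and with the block it passed at 0.0107, a call lost without replicate 1 (0.0535).

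Jun encodes c-Jun, the JUN protein that JNK phosphorylates and that binds its own promoter (ENSMUSG00000052684, chr4:95049034-95052222, minus strand, 1 exon). It was at 169.7, 115 and 158 CPM at 0 h, 96.7, 64.7 and 73.1 CPM at 1 h and 85.5, 64.1 and 79.0 CPM at 6 h. All 0 h libraries lay above all others, and the 1 h and 6 h libraries overlapped. The fitted level at 1 h was 0.531 times that at 0 h, a log2 fold change of -0.91 (95% interval -1.36 to -0.47 on time point alone and -1.05 to -0.78 with the block). At 6 h it was 0.518 times, -0.95 (95% interval -1.40 to -0.50 and, with the block, -1.08 to -0.80). Within a replicate number the log2 ratios were -0.81, -0.82 and -1.11 at 1 h and -0.989, -0.837 and -0.995 at 6 h. Between 1 h and 6 h the difference was -0.04 (95% interval -0.48 to 0.41), and it took the other sign when some libraries were left out. The antisense gene Junos, which shares 232 bases with Jun, was between 0.775 and 1.36 CPM and had a log2 fold change of -0.00 at 1 h.

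Junb, the gene of a JUN protein that can oppose c-Jun in growth control (ENSMUSG00000052837, chr8:84974484-84978718, minus strand), was the member that differed most between replicate numbers. It was at 5.27, 2.11 and 6.72 CPM at 0 h, 5.19, 2.68 and 4.89 CPM at 1 h and 2.08, 2.02 and 2.73 CPM at 6 h. Replicate 2 was already low at 0 h, so the groups overlapped in each comparison. Averaged over time, the highest replicate number was 2.10-fold above the lowest in Junb, 1.05-fold in Jund and 1.45-fold in Jun. At 1 h the log2 fold change was -0.14 (95% interval -1.09 to 0.80, adjusted p = 0.9998). At 6 h against 0 h it was -1.04 (standard error 0.42, adjusted p = 0.237), and with the block -0.94 (standard error 0.20, adjusted p = 0.00240). The log2 ratios within replicate numbers were -1.34, -0.06 and -1.30, so 1 of the 3 was close to no difference. From 1 h to 6 h the difference was -0.90 on the log2 scale (standard error 0.42, adjusted p = 0.316, and 0.00471 with the block).

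Jund encodes JunD, the JUN protein known for steady expression in resting cells (ENSMUSG00000071076, chr8:70698949-70700616, plus strand, 1 exon). It was at 8.20, 6.47 and 8.52 CPM at 0 h, 8.20, 9.47 and 8.97 CPM at 1 h and 8.17, 8.44 and 8.15 CPM at 6 h. The groups overlapped in each comparison. The log2 fold change was 0.20 at 1 h (95% interval -0.10 to 0.50) and 0.09 at 6 h (95% interval -0.21 to 0.40), and it passed in neither fit (adjusted p = 0.9998 and 0.801 on time point alone, 0.307 and 0.503 with the block).

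**Figure D3:**
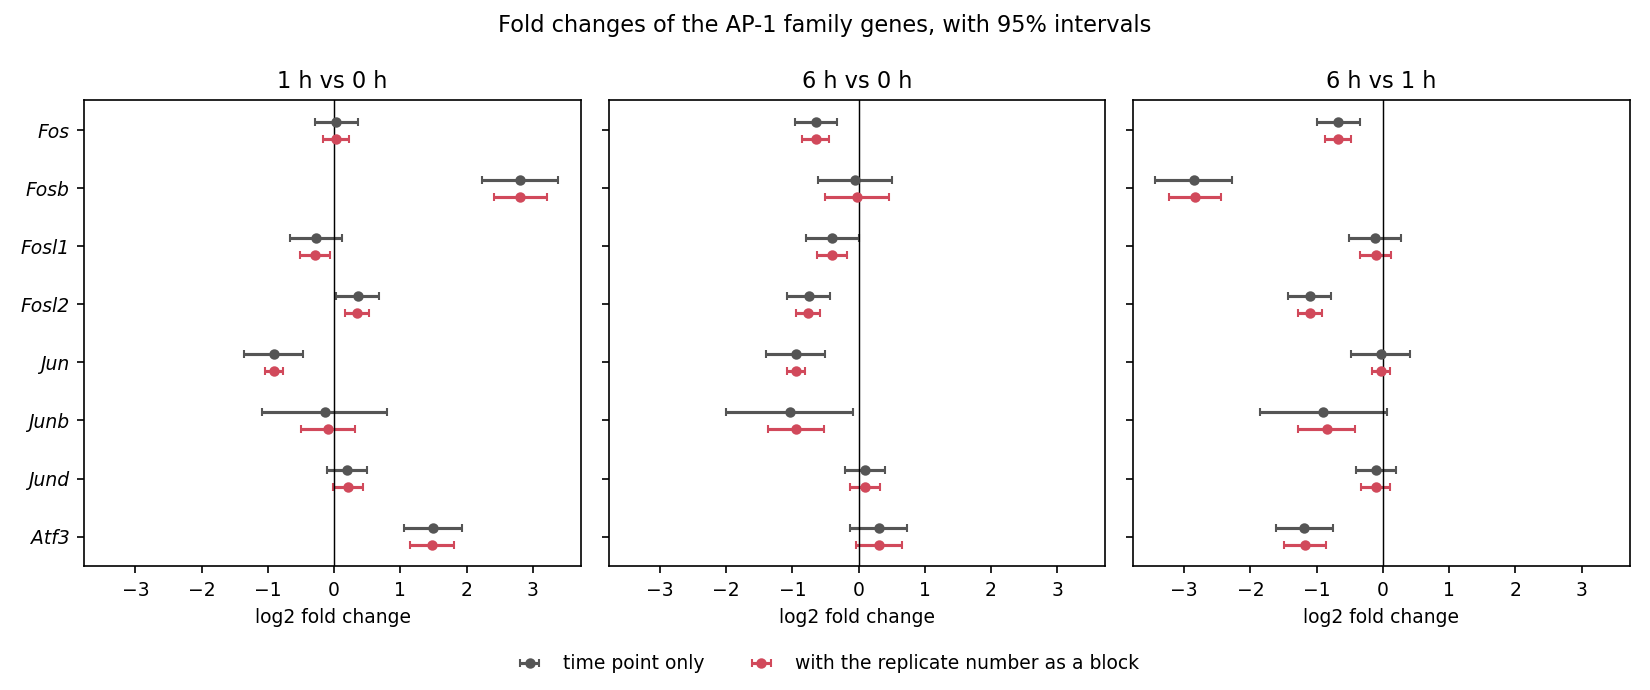
Log2 fold changes (horizontal axes) of the 8 members in the 3 comparisons, with 95% intervals, on time point alone (grey) and with the replicate number as a block (red). Points of both fits lie close together while the intervals with the block are narrower, for example -1.05 to -0.78 against -1.36 to -0.47 for Jun at 1 h against 0 h.

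The counts and medians of the family hold the values on which it was selected, Fosb at 1 h and Jun at 1 h and 6 h against 0 h. They were fixed in part by that selection, and the shares of tested genes beside them are no test of the family. Counted over the family, 1 of 8 members was higher at 1 h than at 0 h on time point alone (Fosb) and 0 were lower, where 0.0424% and 0.0% of tested genes were. With the block 3 were higher (Fosb, Atf3 and Fosl2) and 1 lower (Jun), where 1.36% and 2.14% of tested genes were, 3.51% in all. Against 0 h, 2 members were lower at 6 h (Jun and Fosl2) and 0 higher, where 0.955% and 1.46% of tested genes were, 2.42% in all. The block gave 5 lower (Fos, Fosl1, Fosl2, Jun and Junb) and 0 higher, where 17.5% and 17.4% were, 34.9% in all. Against 1 h, 3 were lower at 6 h (Fosb, Fosl2 and Atf3) and 0 higher, where 0.663% and 1.48% were, 2.14% in all, and the block gave 5 lower (Fosb, Fosl2, Atf3, Fos and Junb) and 0 higher, where 17.5% and 18.0% were, 35.6% in all. Libraries of 0 h and 1 h did not overlap for 3 members higher at 1 h (Fosb, Fosl2 and Atf3) and 2 lower (Fosl1 and Jun), where 3.3% and 4.93% of tested genes did not, 8.24% in all. Those of 0 h and 6 h did not overlap for 1 member higher at 6 h (Atf3) and 4 lower (Fos, Fosl1, Fosl2 and Jun), where 12.8% and 12.1% did not, 25.0% in all. Between 1 h and 6 h it was 0 higher and 4 lower (Fos, Fosb, Fosl2 and Atf3), where 12.1% and 10% did not, 22.2% in all. Beside these counts of 0, edgeR on time point alone had, Jun left aside, 0 members lower at 1 h and 0 higher at 6 h in either comparison at an unadjusted p under 0.05, and DESeq2 also called 0 of them. The median log2 fold change of the members was 0.12, -0.52 and -0.79, while the median of all tested genes was within 0.01 of 0. The comparisons share libraries, so their counts are not independent of each other.

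The 0 h to 6 h comparison also differed in markers of other cells. With the block 4 of 6 neuronal markers were higher at 6 h (Syt1, Rbfox3, Tubb3 and Snap25), where 17.4% of all tested genes were. On time point alone 0 were (2 at an unadjusted p under 0.05). Dcx did not pass, with means of 1.08 CPM at 0 h and 0.811 CPM at 6 h. The summed level of the 6 overlapped between groups (964 to 1483 CPM at 0 h and 1002 to 1567 CPM at 6 h), but most of it was Map2, with a mean of 1133 CPM at both times. Of 3 tested ependymal markers 2, Foxj1 and Ccdc153, were lower with the block, where 17.5% of all tested genes were. On time point alone 0 passed. The sum of the 4, mostly that of Foxj1, was 47.3 to 88.5 CPM at 0 h and 38.5 to 60.1 CPM at 6 h, with Tmem212 near 0. Of 4 tested endothelial and mural markers, 1 was higher with the block, Pdgfrb (0.165 ± 0.192 and 2.12 ± 2.47 CPM). In that fit 2 were lower (Kdr and Rgs5), where 17.4% of all tested genes were higher and 17.5% lower. On time point alone 0 of the 4 passed (1 at an unadjusted p under 0.05). The part of such cells in the fall of Fos, Fosl2 or Junb was not tested. None of the 8 heat shock and dissociation genes passed at 1 h in either fit of edgeR (0 on time point alone and 1 with the block at an unadjusted p under 0.05). Their summed level, mostly that of Hspa8 and Hsp90aa1, was 3407 to 3440 CPM at 0 h and 3367 to 3834 CPM at 1 h. At 6 h, when it was 3209 to 3578 CPM, 2 of the 8 were higher than at 0 h (Hspa1b and Bag3) and 2 lower (Hsph1 and Hsp90aa1) with the block. Of all tested genes 17.4% were higher and 17.5% lower in that fit. On time point alone 0 of the 8 passed (4 at an unadjusted p under 0.05). Their part in the members' values at 6 h was not tested.

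Genes that act on the family or pair with it were counted by lists in the same fits. At 1 h against 0 h, 0 of 82 tested genes in the 5 lists passed on time point alone in edgeR or DESeq2, and 2 had an unadjusted p under 0.05 in edgeR. With the block 4 were higher and 2 lower, which is 6 of 82 where 3.51% of all tested genes passed. None of these 6 calls was kept in all 3 fits that left out a replicate number. Among 10 tested partner genes, Mafk, a small MAF protein, was higher (6.40 ± 0.958 CPM at 0 h and 9.18 ± 1.30 CPM at 1 h, log2 fold change 0.52, adjusted p = 0.00902 with the block), a call lost without replicate 2 or 3 (adjusted p up to 0.0727). Among 14 factors acting on FOS and JUN promoters, Srf, the factor that binds the CArG box of immediate early genes, was higher (40.6 ± 9.67 and 53.0 ± 15.8 CPM, 0.37, adjusted p = 0.0448) and its coactivator gene Mrtfb was lower (-0.33, adjusted p = 0.0113). The call of Srf was lost without replicate 1 or 3 (adjusted p up to 0.172) and with GC and length trends removed (0.119), and that of Mrtfb without replicate 2 (0.0660). Of 26 kinases upstream of AP-1, Map3k1, which activates the JNK pathway, was lower at 1 h (43.7 ± 3.33 and 35.0 ± 2.00 CPM, -0.32, adjusted p = 0.00797), but did not pass without replicate 2 (0.0923). With the block 0 of 10 genes of AP-1 protein turnover passed (1 had an unadjusted p under 0.05).

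At 6 h the calls in these lists stand beside a higher background: against 0 h, 34.9% of all tested genes passed with the block, 17.4% higher and 17.5% lower, and 2.42% on time point alone. Of the 82 list genes 47 passed with the block, and 27 of these calls were kept in all 3 fits that left out a replicate number. On time point alone 1 of the 14 promoter factors passed against 0 h: Mef2c, a MADS-box factor, rose from 21.6 ± 2.03 to 80.2 ± 13.6 CPM (log2 fold change 1.89, adjusted p = 0.00316). With the block 4 of these factors were higher and 3 lower, Srf among the latter (-0.54, adjusted p = 0.000651). Among the kinases 8 of 26 were higher and 5 lower with the block, with Mapk7, the gene of ERK5, at 0.48 (adjusted p = 3.61e-05) and the stress kinase gene Map3k5 at -0.61 (adjusted p = 0.000173). Map3k1 was higher at 6 h than at 1 h in both fits (0.69, adjusted p = 0.0109 on time point alone), kept in 8 of 9 fits with 1 library removed, and Map3k12 passed (0.54, adjusted p = 0.0406) but was kept in 0 of 9 (adjusted p up to 0.149). Of 10 partner genes 2 were higher, Jdp2 among them (0.36, adjusted p = 0.0155, but 0.207 without replicate 2), and 4 lower with the block, led by Maff at -0.71 (adjusted p = 0.000155), and 0 passed on time point alone, where 2 had an unadjusted p under 0.05. Of 10 turnover genes, the ubiquitin ligase gene Fbxw7, which marks c-Jun for degradation, was higher (0.22, adjusted p = 0.00331, but 0.0559 without replicate 1) and 4 were lower with the block.

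Textbook target genes of AP-1 were mostly lower at 6 h, and 22 of the 28 on the list were measured well enough to be tested. At 1 h against 0 h none passed on time point alone in edgeR, at an unadjusted p under 0.05 or after adjustment, and with the block 2 were higher, the cytokine genes Lif (7.12 ± 2.73 and 10.8 ± 5.51 CPM, log2 fold change 0.55, adjusted p = 0.00700) and Ccl2 (5.35 ± 1.46 and 7.93 ± 3.18 CPM, 0.53, adjusted p = 0.0147). Their libraries overlapped between the times, and the calls were lost without replicate 1 for Lif (adjusted p = 0.0949) and without replicate 2 or 3 for Ccl2 (up to 0.113). By 6 h, 15 were lower and 1, Vegfa, was higher with the block (log2 fold change 0.35), where 17.5% and 17.4% of tested genes were lower and higher, and the median of the list was -0.29 against 0.00 for all tested genes. On time point alone 1 passed, Gclc, an enzyme of glutathione synthesis that fell from 87.1 ± 2.56 to 54.4 ± 4.76 CPM (-0.68, adjusted p = 0.00766). Among the larger falls with the block were those of Plaur, the urokinase receptor gene (-2.12, adjusted p = 3.66e-05), which was at 1.26 ± 0.976 CPM at 0 h, and Ccl2 (-1.74, adjusted p = 4.24e-07). Ccl2 was at 1.62 ± 0.613 CPM at 6 h and passed against 1 h in both fits (-2.29, adjusted p = 0.0325 on time point alone, kept in 2 of 9 fits with 1 library removed, and up to 0.136 in the others). Many of these targets answer to other factors as well, and the part of AP-1 in their fall was not tested.

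**Figure D4:**
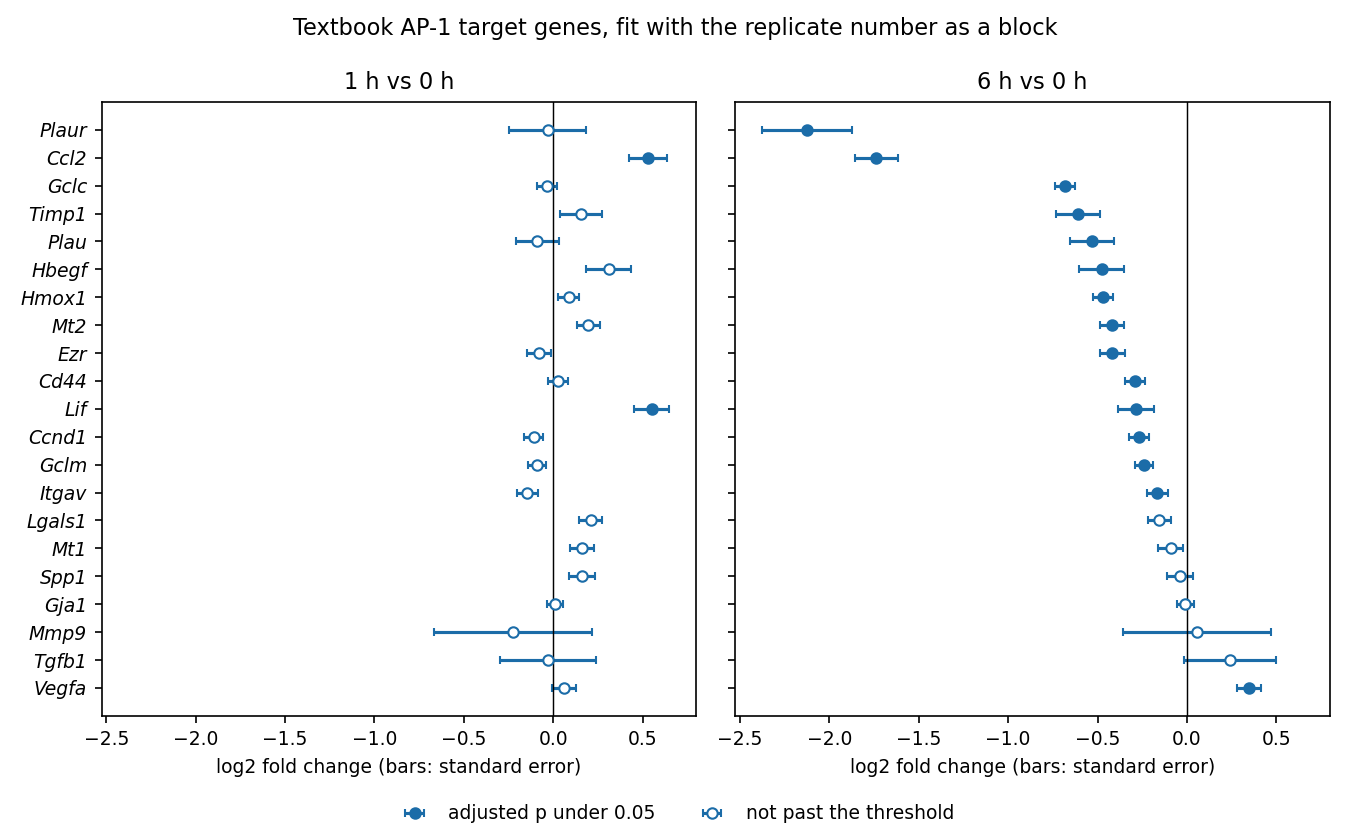
Log2 fold changes (horizontal axes) of 21 of the tested target genes (rows, ordered by their value at 6 h) at 1 h and at 6 h against 0 h, from the blocked fit. Bars are standard errors and filled points are genes with an adjusted p under 0.05: 2 at 1 h and 15 at 6 h, of which 14 are lower.

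After the mean of each replicate number was subtracted, the log2 CPM of Atf3 and Fosb had a Pearson correlation of 0.95 over the 9 libraries, that of Fos and Fosl2 was 0.93 and that of Fosl1 and Jun was 0.93, while that of Jun and Atf3 was -0.62. These values describe 9 libraries that share time points and carry no p. Among 13606 genes with a mean of at least 1 CPM, the closest to Atf3 were the orphan receptor gene Nr4a1 (r = 0.99), Csrnp1 and Adamts1, with means of 9.10, 57.2 and 14.2 CPM for Nr4a1 and 52.5, 172 and 67.0 CPM for Adamts1 at 0, 1 and 6 h. Closest to Fosb were Gcnt2 (r = 0.99), Gm8539 and Gem, the gene of a small GTPase, at 2.32, 15.3 and 2.83 CPM. Fosl2 was closest to Btbd9 (r = 0.99), Egr3 and Slc9a9, and Egr3, another immediate early gene, went from 1.23 CPM at 0 h to 4.55 at 1 h and 0.0869 at 6 h. Fos was closest to Tbpl1, Fbxw11 and Gm25047, Jun to Cep68, Jade3 and Sde2, Fosl1 to Trmt61b, Tcea1-ps1 and Rhoj, and Junb to Col19a1, Dpp9 and Slc7a11, all with r between 0.98 and 0.99. Such an r does not measure the size of a change. Some of these genes moved little, such as Tbpl1 (31.5, 31.4 and 27.7 CPM at 0, 1 and 6 h) and Sde2 (47.7, 42.8 and 42.2 CPM). Others moved more, such as Slc7a11 (19.4, 18.0 and 9.63 CPM). For Jund, the closest named genes were Gm9949 and Podn, with lower r of 0.96 and 0.95.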

How the data were processed

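RNA-seq libraries of NSC cultures at 0, 1 and 6 h were used, 3 per time point. The authors deposited raw counts of reads per Ensembl gene, made from paired-end reads with STAR 2.5.3a on mm10 (GRCm38) and not normalised; the strand setting of the counting is not given in the sources used here. They used FastQC and DESeq2 1.22.1. Gene models and symbols came from GENCODE M21 (48058 of 48526 identifiers matched) and promoters from RefSeq (7 of 8 members matched).

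The main test was that of edgeR 4.0.16 in R 4.3.3: filterByExpr (minimum count 10, minimum total 15), TMM, glmQLFit and glmQLFTest over all 9 libraries with time point as group, and Benjamini-Hochberg adjustment over 18858 genes with a threshold of 0.05. Both fits were tested on simulated counts with changes of known size and a set spread. Each simulated gene also had a shift shared by libraries with the same number, so a gain from the block was built in. The set spread was smaller than that of these data on time point alone (common biological coefficient of variation 0.277), where recovery may be lower. At 1 h against 0 h, time point alone recovered 0% of 1.5-fold, 46.3% of 2-fold and 86.4% of 4-fold changes. The block recovered 82.1%, 89.6% and 97.0%. At 6 h against 0 h these were 0%, 34.3% and 78.8%, and with the block 80.6%, 88.1% and 98.5%. Of the unchanged genes, 0 were called on time point alone and 7 with the block in either comparison. A gene that did not pass on time point alone may therefore still have changed by 1.5-fold or 2-fold. Tables and figures used Python 3.11.15, pandas 2.3.3, numpy 2.4.6 and matplotlib 3.10.9. After subtraction of time-point means, libraries with the same replicate number correlated at 0.733 to 0.800 (9 pairs) and those with other numbers at -0.462 to -0.314 (18 pairs), so the numbers, which come from letters in the labels, pair the samples. No library was a copy of another (chi-square per degree of freedom of at least 78.7 within groups). Alternatives were DESeq2 1.42.0, the block, RLE scaling, library totals, other filters and thresholds, fits of the 6 libraries compared, GC and length trends removed (splines with 4 degrees of freedom) and leaving out libraries. Levels per kilobase of unshared exonic bases, which divide the CPM of the whole gene by that length, were chosen after seeing the data.

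The members, lists and tests were chosen with earlier results of these data known. All members were named, up to 5 genes past the threshold in either fit per list and comparison by size of change, and the 3 genes most like each member. A few list genes that passed are not reported here by name. Depth limits genes with few reads, such as Fosb with 31 to 63 at 0 h and 6 h.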

Additional observations from a re-analysis of the deposited data

How the results depend on the processing

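With the replicate number as a block, 4, 5 and 5 of the 8 members passed at 1 h against 0 h, 6 h against 0 h and 6 h against 1 h, where 1, 2 and 3 passed on time point alone. DESeq2 on time point alone gave 3 (Fosb, Atf3 and Jun), 3 (Jun, Fosl2 and Fos) and 4 (Fosb, Atf3, Fosl2 and Fos). Without the block it did not call Fosl2 at 1 h, or Fosl1 and Junb at 6 h. DESeq2 with the block gave 4, 5 and 5. The block with GC and length trends removed gave 4, 5 and 5, and the block without 1 replicate number gave 3 to 4, 4 to 5 and 5. A mean of at least 1 CPM gave 2 at 1 h against 0 h, no filter gave 0 at 6 h against 0 h, and fits of only the 6 libraries compared gave 0, 0 and 1. An adjusted p under 0.01 gave 0, 0 and 1, and a log2 change of 1 or more in size left 0 at 6 h against 0 h. Leaving out 1 library gave 0 to 1, 0 to 1 and 1 to 3. These counts hold Fosb and Jun, on whose values the family was selected.

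For the pathway lists 0, 2 and 7 genes passed on time point alone, 6, 47 and 46 with the block, 7, 44 and 46 by DESeq2 with the block, and 5, 49 and 50 with the block and trends removed. DESeq2 gave 12 and 17 at 6 h against 0 h and 1 h, the block without 1 replicate number 4, 2 and 3, then 34, 32 and 50, and 31, 34 and 49 (without replicates 1, 2 and 3), and leaving out 1 library 0 to 0, 2 to 4 and 1 to 4. At 6 h against 1 h only the 6 libraries compared gave 1, an adjusted p under 0.01 gave 1 and a log2 change of 1 or more in size gave 2, and the last gave 1 at 6 h against 0 h.

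Small differences turned sign. Fos at 1 h ranged from -0.049 to 0.094 without 1 library, and was -0.0065 with the block without replicate 2 and -0.0078 with the block and trends removed. Fosb at 6 h against 0 h ranged from -0.24 to 0.17 without 1 library, and with the block was 0.039 without replicate 1 and 0.18 without replicate 3. Jun at 6 h against 1 h ranged from -0.15 to 0.14 without 1 library, and was 0.0014 with library totals and 0.048 with the block without replicate 1. Junb at 1 h ranged from -0.49 to 0.20, and was 0.125 with the block without replicate 3. Jund at 6 h against 0 h ranged from -0.013 to 0.17, and with the block was -0.025 without replicate 2 and -0.042 with trends removed. Timp1 at 6 h against 0 h ranged from -1.60 to 0.36. The cause of these changes was not tested. Fosb rests on few reads, and Fosl1 and Jund on exons that may be only partly counted.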
